A study of Mus musculus with 9 samples.

Results

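The RNA levels of 9 genes of the p53 pathway and of cell cycle arrest in senescence were followed in epididymal adipose tissue of obese male mice through 2 weeks of weight loss. The genes were Trp53, Mdm2, Cdkn1a, Cdkn2a, Cdkn2b, Cdkn2c, Gdf15, Ccng1 and Zmat3. They were taken by name from the 56748 genes of the authors' count table, and all 9 were found once each. The names were chosen with earlier results of these data known. C57BL/6J wild-type mice, 8 weeks old at the start, were fed a high-fat diet (HFD) for 8 weeks (Pre), or HFD for 8 weeks followed by a standard diet (SD) for 1 week (WL1) or 2 weeks (WL2). All 3 groups had thus been fed HFD, and they were 16, 17 and 18 weeks old at sampling, so that time on SD and age cannot be told apart. Each group had 3 RNA sequencing libraries. The sources do not say whether tissue was pooled, so the p-values measure the spread between these samples. No lean group is among the 9 libraries.

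p53, encoded by Trp53, is a transcription factor that is held at a low protein level by the ubiquitin ligase Mdm2 and accumulates when DNA is damaged or the cell is stressed. Much of its control acts on the protein and not on its RNA, so the RNA of its target genes is often used as a readout. Mdm2, Cdkn1a (p21), Ccng1 (cyclin G1), Zmat3 and Gdf15 are known p53 targets, each with other inputs as well. Senescence is a lasting arrest of the cell cycle that is held by inhibitors of cyclin-dependent kinases (CDKs), namely p21 and the INK4 family with Cdkn2a (p16Ink4a), Cdkn2b (p15Ink4b) and Cdkn2c (p18Ink4c). Obese adipose tissue is known to gather senescent cells, and Cdkn2c is also known as a gene of mature adipocytes.

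At WL1, 4 of the 9 genes differed from Pre. Cdkn2b and Cdkn2c, both INK4 inhibitors of CDK4 and CDK6, and Ccng1 fell, and Gdf15, a secreted stress cytokine, rose. At WL2, Cdkn2b, Cdkn2c and Ccng1 were still lower than at Pre, and none of the 9 genes differed between WL2 and WL1. Trp53 itself had nearly the same level in the 3 groups. Genes were called by edgeR's quasi-likelihood test at a Benjamini-Hochberg adjusted p under 0.05 over the 18510 genes with at least 0.5 CPM (counts scaled to library size) in at least 1 library, and all 9 genes were among them. In WL1 against Pre, 4 of 9 genes were called, beside 7.29% of all genes tested, and the 1 higher and 3 lower genes stood beside 2.60% and 4.69%. In WL2 against Pre, 3 of 9 genes were called, all lower, beside 10.0% of all genes in either direction, 3.35% higher and 6.66% lower. In WL2 against WL1, 0 of 9 genes were called by edgeR and by DESeq2, beside 3.68% of all genes in either direction (1.31% higher and 2.37% lower), and 1 gene, Mdm2, had an unadjusted p under 0.05. The median log2 fold change of the 9 genes was -0.66 at WL1 and -0.32 at WL2 relative to Pre, and that of all genes tested was 0.021 and 0.0084.

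**Figure D1:**
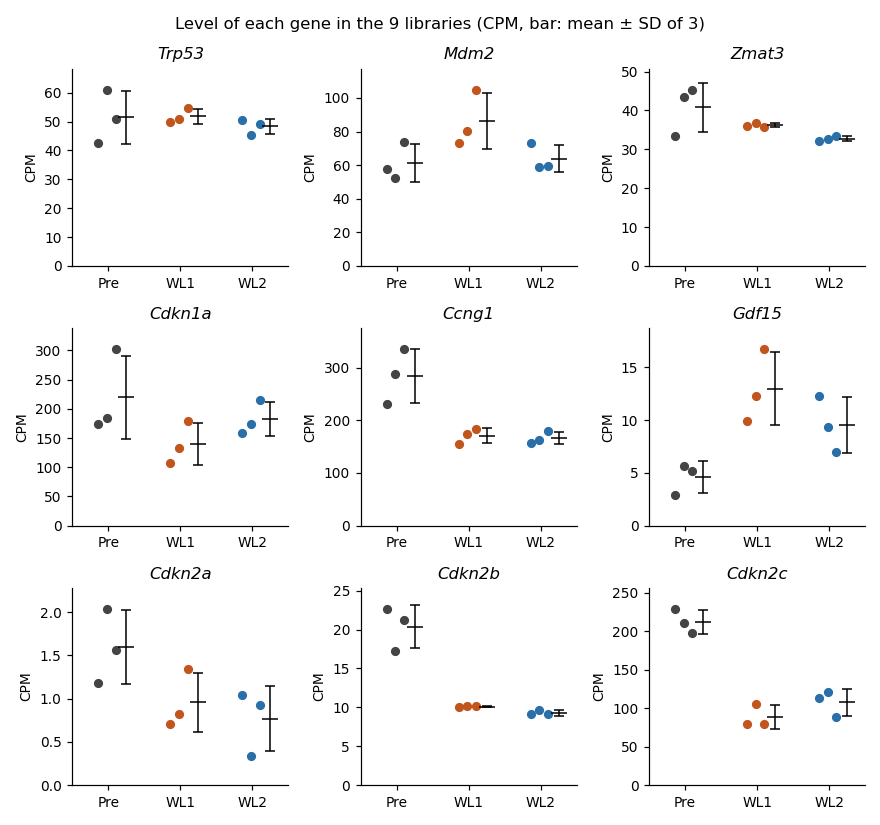
Level of each of the 9 genes (vertical axis, CPM from 0, own scale for each gene) in the Pre, WL1 and WL2 libraries (points, 3 per group, in the order of their numbers), with the mean and SD of each group as a bar. Every WL1 and WL2 library lies below every Pre library for Cdkn2b, Cdkn2c and Ccng1 and above every Pre library for Gdf15, and the Trp53 levels of 42.6 to 61.1 CPM overlap between all groups.

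Among the called genes, Cdkn2b and Cdkn2c of the INK4 family had the largest decreases. All 3 INK4 genes measured here are listed on the minus strand of chromosome 4 in the authors' table, Cdkn2a at 89192708-89212890, Cdkn2b beside it at 89224536-89229276 and Cdkn2c farther on at 109518073-109524386, in a build that the table does not name and that differs in position from GRCm38. Cdkn2b (ENSMUSG00000073802), whose product p15Ink4b is induced by TGF-beta, was at 22.6, 17.2 and 21.2 CPM in the Pre libraries, at 9.99, 10.1 and 10.2 CPM in the WL1 libraries and at 9.09, 9.69 and 9.09 CPM in the WL2 libraries. The lowest Pre library was thus well above the highest library of either later group. Levels are given as CPM on library totals scaled by TMM factors, with the mean ± SD of 3 libraries. The mean was 20.4 ± 2.79 CPM at Pre (SD, n = 3), 10.1 ± 0.101 at WL1 (SD, n = 3) and 9.29 ± 0.345 at WL2 (SD, n = 3), so that WL1 stood at 0.496 and WL2 at 0.456 times the Pre mean. The log2 fold change was -1.01 at WL1 (SE 0.13, edgeR adjusted p = 0.00234) and -1.13 at WL2 (SE 0.14, edgeR adjusted p = 0.000682). The WL2 libraries lay just below the WL1 libraries without overlap, a log2 difference of -0.12 that did not pass the test (edgeR adjusted p = 0.678). On the other strand of Cdkn2b, over 4741 bases, the authors' table lists the long noncoding RNA gene Gm12610, with 117 reads in the 9 libraries against 2236 for Cdkn2b. No source used here gives the strand setting of the counting, so reads of this pair cannot be told apart. The same limit holds for genes listed on the other strand of Cdkn2c, Cdkn1a and Trp53. These share 342 bases with Cdkn2c (105 reads against 22901), 1046 with Cdkn1a (201 against 30612) and 324 with Trp53 (75 against 8503).

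Cdkn2c (ENSMUSG00000028551), whose product p18Ink4c also inhibits CDK4 and CDK6, was at 229, 210 and 198 CPM at Pre, at 78.9, 106 and 79.6 CPM at WL1 and at 113, 122 and 88.1 CPM at WL2. All later libraries were below all Pre libraries, and WL1 and WL2 overlapped. The means were 212 ± 15.8 CPM at Pre (SD, n = 3), 88.2 ± 15.5 at WL1 (SD, n = 3) and 108 ± 17.5 at WL2 (SD, n = 3). Cdkn2c fell by 1.27 on the log2 scale at WL1 (SE 0.16, edgeR adjusted p = 0.00152) and by 0.98 at WL2 (SE 0.16, edgeR adjusted p = 0.00336), and the difference of WL2 from WL1, 0.29, did not pass the test (edgeR adjusted p = 0.326). Cdkn2b and Cdkn2c were called against Pre at both times under every alternative setting and without any 1 library.

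Cdkn2a (ENSMUSG00000044303), the gene most often used to mark senescent cells, had the fewest reads of the 9 genes. Its 2 known products, p16Ink4a and p19Arf, an inhibitor of Mdm2, share exons, and the counts per gene do not separate them. The reads numbered 20, 37 and 34 at Pre, 13, 18 and 24 at WL1 and 19, 6 and 16 at WL2, which is 1.18, 2.04 and 1.57 CPM, then 0.706, 0.827 and 1.35 CPM, then 1.04, 0.340 and 0.927 CPM. The WL1 libraries overlapped with Pre, while all 3 WL2 libraries were below Pre. Its log2 fold change was -0.73 at WL1 (edgeR adjusted p = 0.360) and -1.05 at WL2 (edgeR adjusted p = 0.193, 95% interval -2.09 to 0.00076), so that neither difference passed the test. The summed reads of 91 at Pre and 41 at WL2 gave a ratio of 0.481 after scaling, with an interval of 0.324 to 0.703 that covers counting error only.

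Gdf15 (ENSMUSG00000038508, chromosome 8), a cytokine of the TGF-beta superfamily that stressed cells release and that lowers food intake through a receptor in the hindbrain, moved the other way. It was at 2.89, 5.68 and 5.21 CPM at Pre, at 9.88, 12.3 and 16.7 CPM at WL1 and at 12.3, 9.29 and 7.01 CPM at WL2. Every later library was above every Pre library, and WL1 and WL2 overlapped. The mean was 4.59 ± 1.49 CPM at Pre (SD, n = 3), 12.9 ± 3.46 at WL1 (SD, n = 3) and 9.52 ± 2.64 at WL2 (SD, n = 3), or 2.82 and 2.07 times the Pre mean. Gdf15 rose by a log2 fold change of 1.49 at WL1 (SE 0.30, edgeR adjusted p = 0.0177). At WL2 the log2 fold change was 1.05 (SE 0.30), just short of the threshold (edgeR adjusted p = 0.0531). The call at WL1 was lost without Pre replicate 1 (log2 fold change 1.25, edgeR adjusted p = 0.0512) and without WL1 replicate 3 (1.26, edgeR adjusted p = 0.0657), the lowest and the highest of these 6 libraries. At WL2 the gene passed with DESeq2 (adjusted p = 0.0106), without a filter, with a filter of 0.5 CPM in 3 libraries, with library totals as the only scaling and without WL1 replicate 3.

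The Gdf15 receptor is formed by Gfral and the co-receptor Ret. Gfral, whose known site is the hindbrain, had 0 reads in all 9 libraries, which allows up to 0.138 to 0.177 CPM per library (3 reads). Ret, which also serves other ligands, had a mean of 60.7 CPM at Pre, which was followed by 22.6 at WL1 and 14.3 at WL2. It fell at both times, with log2 fold changes of -1.42 (SE 0.12, edgeR adjusted p = 0.000291) and -2.08 (SE 0.12, edgeR adjusted p = 1.25e-05), and was called without any 1 library. Between WL2 and WL1 it was lower by 0.66 (edgeR adjusted p = 0.0200), a call lost without any 1 of the WL1 libraries and without WL2 replicate 2 or 3 (up to 0.111).

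Ccng1 (ENSMUSG00000020326, chromosome 11), which encodes cyclin G1, a p53 target that brings phosphatase 2A to Mdm2, was at 231, 287 and 335 CPM at Pre, at 156, 174 and 183 CPM at WL1 and at 157, 163 and 179 CPM at WL2. The Pre libraries were spread widely, yet the lowest of them was above all 6 later libraries. Relative to the Pre mean of 284 ± 51.7 CPM (SD, n = 3), WL1 was at 0.601 and WL2 at 0.585 times. Ccng1 fell by 0.73 on the log2 scale at WL1 (SE 0.14, edgeR adjusted p = 0.0140) and by 0.77 at WL2 (SE 0.14, edgeR adjusted p = 0.00725). The call at WL1 was lost without WL1 replicate 1 (log2 fold change -0.67, edgeR adjusted p = 0.0559), and that at WL2 held without any 1 library.

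Cdkn1a (ENSMUSG00000023067, chromosome 17), which encodes p21, the CDK inhibitor through which p53 stops the cell cycle, varied more within groups. It was at 174, 185 and 302 CPM at Pre, at 108, 132 and 179 CPM at WL1 and at 159, 174 and 216 CPM at WL2. The highest WL1 library was above the lowest Pre library, and Pre replicate 3 stood far above the other 8 libraries. On the log2 scale the difference from Pre was -0.66 at WL1 (SE 0.24, 95% interval -1.19 to -0.12, edgeR adjusted p = 0.129) and -0.27 at WL2 (edgeR adjusted p = 0.513), and neither passed. Without a low-count filter, the WL1 difference passed (log2 fold change -0.65, edgeR adjusted p = 0.0405). At WL2 the value without Pre replicate 3 was 0.030, with the sign turned.

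Cdkn1a and Ccng1 are shown here by sequence because, of the 8 genes with a promoter window in the table used (RefSeq, GRCm38.p6), they were the ones in which a p53 response element was found. The search took the p53 consensus decamer, 2 copies side by side with the C and the G of each core exact and at most 1 other mismatch per decamer, in the 250 bases before each transcription start. The pattern reads the same on both strands, and its settings were chosen after promoter sequences had been seen. In capitals are the 20 bases of the element, within the gene's strand from 5′ to 3′. The printed stretches, flanks included, lie at chr17:29090908-29090967 on the plus strand and at chr11:40755442-40755501 on the minus strand. The last base in capitals lies 31 bases before the upstream of 2 Cdkn1a starts and 175 bases before the Ccng1 start, and each element has 1 mismatch in all. No element was found in the window of the other, downstream Cdkn1a start, at chr17:29093519-29093818, so the Cdkn1a element is near only 1 of its 2 starts.
Cdkn1a: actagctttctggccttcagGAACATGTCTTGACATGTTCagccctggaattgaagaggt
Ccng1: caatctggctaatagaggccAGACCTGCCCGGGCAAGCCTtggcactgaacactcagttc
Such an element was found for 57 of 27025 genes with a window (0.211%), for 2 of 8 genes described here and for 0 of 20 other known p53 targets with a window. Many p53 elements are known to lie in introns or farther upstream, outside the window, and a match of letters does not show binding. The pair shown did not share a call, since Ccng1 fell at both times and Cdkn1a did not pass at either.

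Trp53 (ENSMUSG00000059552, chromosome 11) was at 42.6, 61.1 and 50.8 CPM at Pre, at 49.9, 50.7 and 54.8 CPM at WL1 and at 50.4, 45.3 and 49.3 CPM at WL2. The Pre libraries enclosed all others. The log2 fold change at WL1 was 0.0084 with a 95% interval of -0.28 to 0.30 (edgeR adjusted p = 0.978), and that at WL2 was -0.092 (edgeR adjusted p = 0.698). The pseudogene Trp53-ps had 75 reads against 8503 for Trp53.

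Mdm2 (ENSMUSG00000020184, chromosome 10), at once a p53 target and its main inhibitor, was at 57.4, 52.3 and 73.8 CPM at Pre, at 73.5, 80.1 and 105 CPM at WL1 and at 73.1, 58.8 and 59.4 CPM at WL2. The WL1 libraries were the highest group, apart from the highest Pre library, which slightly exceeded the lowest WL1 library. Mean levels were 1.41 and 1.04 times Pre. The log2 fold change was 0.49 at WL1 (SE 0.17, edgeR adjusted p = 0.113) and 0.060 at WL2 (edgeR adjusted p = 0.854). The WL2 libraries did not overlap with WL1, at a log2 difference of -0.43 (edgeR adjusted p = 0.176), and none of the 3 differences passed the test.

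Zmat3 (ENSMUSG00000027663, chromosome 3), a p53 target that encodes an RNA-binding zinc finger protein, was at 33.5, 43.5 and 45.3 CPM at Pre, at 35.9, 36.9 and 35.8 CPM at WL1 and at 32.0, 32.7 and 33.5 CPM at WL2. Pre replicate 1 was as low as the later libraries and the other 2 Pre libraries were above them. On the log2 scale the difference was -0.17 at WL1 (edgeR adjusted p = 0.416) and -0.32 at WL2 (edgeR adjusted p = 0.131). Without Pre replicate 1, the WL2 difference was -0.44 and passed (edgeR adjusted p = 0.0342).

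**Figure D2:**
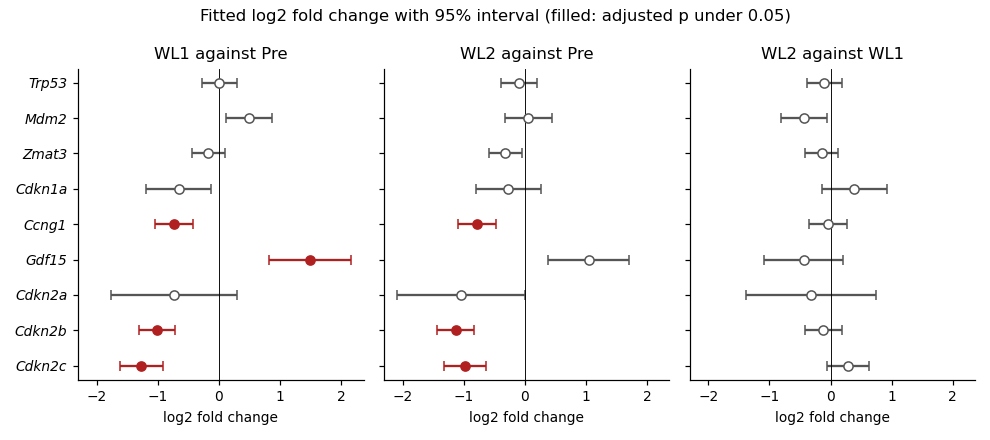
Fitted log2 fold change of each gene (horizontal axis, same scale in the 3 panels) with its 95% interval, for WL1 against Pre, WL2 against Pre and WL2 against WL1. Filled red points passed the adjusted threshold: Gdf15 at 1.49, Ccng1 at -0.73, Cdkn2b at -1.01 and Cdkn2c at -1.27 in the first panel, Ccng1 at -0.77, Cdkn2b at -1.13 and Cdkn2c at -0.98 in the second, and none in the third.

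Levels per transcript length were compared in the FPKM values of the authors, from which the order of the genes can be read. At Pre, Ccng1 (mean 76.0 FPKM), Cdkn2c (74.2 FPKM) and Cdkn1a (58.2 FPKM) were the most abundant, and each overlapped with its neighbour in the order. Below a gap came Cdkn2b (13.7 FPKM), Trp53 (12.0 FPKM) and Mdm2 (11.3 FPKM), where neighbours again overlapped. Below another gap came Zmat3 (3.35 FPKM), Gdf15 (2.33 FPKM) and Cdkn2a (1.28 FPKM), also with overlap between neighbours. At WL1 Cdkn1a (36.4 FPKM) and Cdkn2c (30.4 FPKM) had changed places, still overlapping, while Cdkn2b (6.73 FPKM) had dropped below Mdm2 (15.7 FPKM) and Trp53 (11.9 FPKM) without overlap and stood beside Gdf15 (6.47 FPKM). At WL2 Cdkn1a led with 48.4 FPKM, ahead of Ccng1 with 44.4 and Cdkn2c with 37.5, each overlapping with the next, and Cdkn2a was last with 0.613 FPKM.

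The summed RNA of cell type markers was not constant across the groups. In bulk RNA, fewer cells of a type and less RNA per cell cannot be told apart. The labelled tissue was checked against its markers. All 10 adipocyte markers were detected in every group, and 5 epididymis genes were at most at 0.116 CPM summed in any library. The adipocyte markers summed to 29522 to 37413 CPM at Pre, 20927 to 27494 at WL1 and 30698 to 33713 at WL2. Relative to Pre, 4 of 10 were lower at WL1, beside 4.69% of all genes tested. At WL2, 1 was higher and 2 were lower, beside 3.35% and 6.66%. The 14 macrophage markers summed to 1773 to 3367 CPM at Pre and 4805 to 9970 at WL1, and at WL2 to 5258 CPM in replicate 1 beside 2059 and 2194 in the others. Of these, 3 of 14 were higher at WL1, beside 2.60% of all genes tested, and none was called at WL2 relative to Pre, beside 10.0%. Fibroblast and progenitor markers summed to 2032 to 2566 CPM at Pre, 1528 to 2028 at WL1 and 1693 to 2253 at WL2. Of these 7 genes, however, 4 had a log2 fold change above 0 at either time relative to Pre. The medians were 0.20 at WL1 and 0.17 at WL2. At WL1, 1 was lower, beside 4.69% of all genes tested. At WL2, 1 was higher and 1 lower, beside 3.35% and 6.66%. The 5 mesothelial markers summed to 33.5, 339 and 298 CPM in the Pre libraries. Their sums were 196, 40.9 and 104 in the WL1 libraries and 214, 450 and 603 in the WL2 libraries. None was called at WL1 or WL2 relative to Pre, beside 7.29% and 10.0% of all genes tested. Between WL2 and WL1 none was called either, beside 3.68%, with all 5 at an unadjusted p under 0.05.

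Set beside these sums, Cdkn2b, Cdkn2c and Ccng1 were below their Pre range in all WL1 and all WL2 libraries. The adipocyte sum was below its Pre range in all WL1 libraries and within it in all WL2 libraries. The mean of Cdkn2c was 88.2 CPM at WL1 and 108 at WL2, a difference that did not pass the test. The means of Cdkn2b and Ccng1 were slightly lower at WL2 than at WL1. Gdf15 was highest at Pre in replicate 2, at WL1 in replicate 3 and at WL2 in replicate 1, the libraries with the highest macrophage sum of their groups. It was lowest in replicate 1 at Pre and at WL1, where the macrophage sum was also lowest. At WL2 Gdf15 was lowest in replicate 3 and the macrophage sum in replicate 2. Gdf15 was above all Pre libraries also in the WL2 replicates 2 and 3, whose macrophage sums were within the Pre range. Pre replicate 2 stood apart by its B cell markers, at 182 CPM against 3.65 to 16.4 in the others, and by its T cell markers, at 19.3 CPM against 1.11 to 3.23. Without it, the same 4 genes were called at WL1 and the same 3 at WL2. Pre replicate 1 had the lowest mesothelial, macrophage, and fibroblast and progenitor sums of its group and the highest adipocyte sum. Without this library, 3 genes were called at WL1, where Gdf15 was lost, and 4 at WL2, where Zmat3 was added. The share of mitochondrial reads was 3.15 to 3.57% at Pre, 1.86 to 2.03% at WL1 and 2.28 to 2.88% at WL2, and totals were 16434450 to 22729072 reads. The part of cell makeup in the results was not tested.

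**Figure D3:**
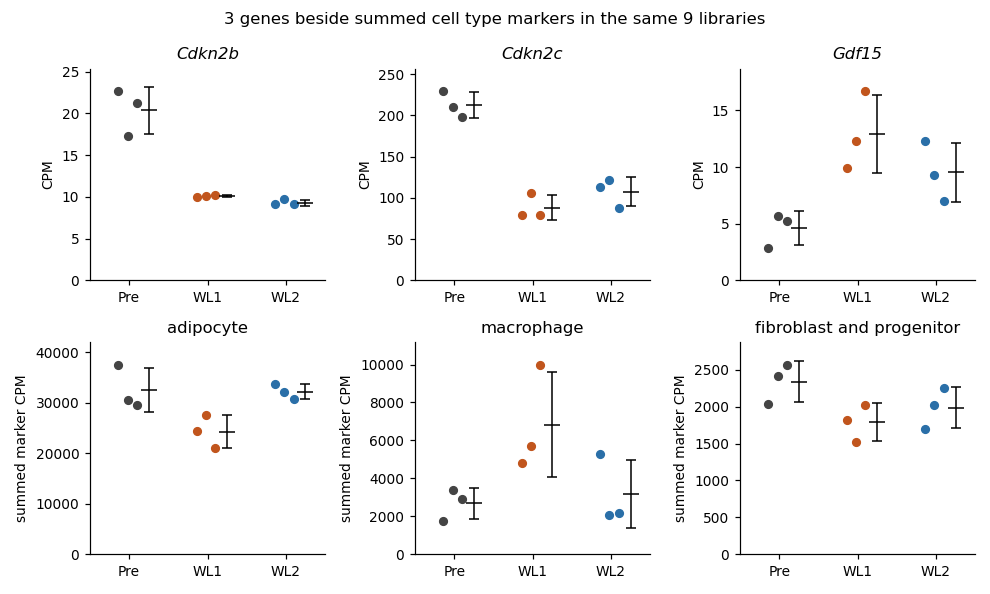
Cdkn2b, Cdkn2c and Gdf15 (upper row, CPM) above the summed CPM of adipocyte, macrophage, and fibroblast and progenitor markers (lower row) in the same 9 libraries, with points per library and the mean and SD of each group. The adipocyte sum is 20927 to 27494 CPM at WL1 and 30698 to 33713 CPM at WL2. Cdkn2b is at 9.99 to 10.2 CPM at WL1 and at 9.09 to 9.69 CPM at WL2. Cdkn2c is at 78.9 to 106 CPM at WL1 and at 88.1 to 122 CPM at WL2. Macrophage sums are highest in WL1 replicate 3 and, within WL2, in replicate 1.

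The genes with the most similar profiles were sought among 13047 protein-coding genes with a mean of at least 1 CPM, by the root mean square difference of centred log2 CPM over the 9 libraries, as a description without a test. Nearest to Cdkn2b were Tlcd1 (0.0820), Cnnm2 (0.0926) and Mrap (0.106), the last an accessory protein of melanocortin receptors. Nearest to Cdkn2c were Pemt (0.115), Entpd6 (0.137) and Cavin3 (0.139), of which Pemt makes phosphatidylcholine and Cavin3 is a caveola protein. Nearest to Ccng1 were Acly (0.101), the enzyme that supplies cytosolic acetyl-CoA for fatty acid synthesis, Rab32 (0.116) and Rtn4rl2 (0.125). Nearest to Gdf15 were Stab2 (0.202), Dlg3 (0.220) and Fnip2 (0.255), at about the distance that separated Cdkn2b from Cdkn2c (0.246) and from Ccng1 (0.246).

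Of 28 other known p53 targets tested, 1 rose and 3 fell at WL1, beside 7.29% of all genes tested, and 2 rose and 6 fell at WL2, beside 10.0%, with medians of -0.22 and -0.21 on the log2 scale. The count of 4 at WL1 was 2 without WL1 replicate 1, and that of 8 at WL2 was 3 to 6 with 1 library left out. Phlda3, a p53 target that blocks Akt at the membrane, fell most firmly, from a mean of 428 CPM at Pre to 179 at WL1 and 184 at WL2. Its log2 fold changes were -1.26 (SE 0.13, edgeR adjusted p = 0.000706) and -1.21 (SE 0.13, edgeR adjusted p = 0.000328), and it was called without any 1 library. Plk2, a polo-like kinase, rose from 42.9 CPM to 88.2 at WL1 (log2 fold change 1.04, SE 0.18, edgeR adjusted p = 0.00850), again without dependence on any 1 library, and was at 45.9 CPM at WL2. Rrm2b, the p53-induced ribonucleotide reductase subunit, rose at WL2 (log2 fold change 0.65, SE 0.11, edgeR adjusted p = 0.00445), likewise in all leave-one-out fits. Dcxr fell at WL1 by 0.70 and lost its call without WL1 replicate 1 (edgeR adjusted p = 0.0517). Ddb2 (0.68) and Ckap2 (-1.33) passed at WL2 by a narrow margin, Ddb2 in 0 of 9 leave-one-out fits (edgeR adjusted p up to 0.194) and Ckap2 in only that without Pre replicate 2 (up to 0.176). Ckap2 and Plk2 were lower at WL2 than at WL1, by 1.78 and 0.94 on the log2 scale, calls that were lost without any 1 of the WL1 libraries and without WL2 replicate 2 or 3 (edgeR adjusted p up to 0.164 and 0.123).

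Among 19 tested regulators of p53, 1 rose and 1 fell at WL1, beside 7.29% of all genes tested. At WL2, 2 rose and 1 fell, beside 10.0%. The medians were 0.13 and 0.11. Between WL2 and WL1, 0 were called, beside 3.68% of all genes, and 1 had an unadjusted p under 0.05. Mdm4, the partner of Mdm2 (log2 fold change 0.47), and the deacetylase Sirt1 (0.46) rose at WL2, and the kinase Hipk2 fell by 0.79. Ep300, an acetyltransferase, rose by 0.50 and the p53 relative Trp63, at 2.08 CPM at Pre, fell by 1.67 at WL1. These 5 calls were lost without most single libraries (edgeR adjusted p up to 0.179). Trp63 was kept only without Pre replicate 3 and WL2 replicates 1 and 3, Ep300 only without Pre replicate 3, Hipk2 only without WL1 replicate 1 and WL2 replicate 3, Mdm4 only without Pre replicate 1 and Sirt1 only without Pre replicate 2.

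In the CDK and RB axis beyond the members, 1 of 20 genes fell at WL1, beside 7.29% of all genes tested. At WL2, 1 rose and 4 fell, beside 10.0%. The median was 0.12 at WL1, with 13 of 20 above 0, and -0.11 at WL2. E2f2, a transcription factor released by RB, fell from 12.5 CPM at Pre to 5.73 at WL1 and 3.52 at WL2. The log2 fold change at WL2 was -1.82 (SE 0.29, edgeR adjusted p = 0.00355) and was called without any 1 library, while that at WL1, -1.12, was kept only without Pre replicates 1 and 3 and WL2 replicate 1 (edgeR adjusted p up to 0.124 in the other fits). Cbx7, a Polycomb protein known to repress the Cdkn2a locus, rose at WL2 from 35.3 to 79.7 CPM (log2 fold change 1.18, SE 0.19, edgeR adjusted p = 0.00422), also without dependence on any 1 library. Ccne1, which encodes cyclin E1, fell at WL2 by 1.46 (edgeR adjusted p = 0.0114) and lost its call without WL2 replicate 2 or 3 (up to 0.0571). Ccnd1, the cyclin D1 partner of CDK4, was lower at WL2 than at WL1 by 0.99 (edgeR adjusted p = 0.0200), a call lost without any 1 of the WL1 libraries and without WL2 replicate 2 or 3 (up to 0.113).

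Secreted factors that senescent cells are known to release had calls in both directions at WL1. Of 25 tested, 4 rose and 3 fell at WL1, beside 7.29% of all genes tested. The median was 0.30, and 17 of 25 were above 0. At WL2, 3 fell relative to Pre, beside 10.0% of all genes, with a median of -0.18. Relative to WL1, 2 were lower at WL2, beside 3.68% of all genes, with a median of -0.52. In this comparison 6 of 25 were above 0, and 9 had an unadjusted p under 0.05. The chemokine Ccl8 fell from 16.9 CPM to 3.90 at WL1 and 5.13 at WL2 (log2 fold changes -2.11 and -1.72, SE 0.22 for each, edgeR adjusted p = 0.000730 and 0.000902), and the cytokine Lif fell at WL2 by 1.32 (SE 0.24, edgeR adjusted p = 0.00692), both in all leave-one-out fits. Mmp12, a macrophage elastase, rose at WL1 from 223 to 1093 CPM (log2 fold change 2.29, SE 0.54, edgeR adjusted p = 0.0320), beside the higher macrophage sum, a call lost without any 1 of the Pre libraries and without WL1 replicate 2 or 3 (up to 0.105). The binding proteins Igfbp5 and Igfbp4 fell at WL1 by 1.16 and 1.02. The first call was lost without Pre replicate 1 or 3 or WL1 replicate 2 or 3 (up to 0.103) and the second without WL1 replicate 2 (0.0532). Ccl2, which draws monocytes, fell at WL2 by 1.19, a call lost without Pre replicate 3 or WL2 replicate 2 or 3 (up to 0.119). Tnf, an inflammatory cytokine, and Plau, the urokinase, were lower at WL2 than at WL1 by 1.31 and 0.84, calls lost without any 1 of the WL1 libraries and without WL2 replicate 2 or 3 (up to 0.132 and 0.133).

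Of 7 genes tested that are used to describe the senescent state, 1 rose at WL1, beside 7.29% of all genes tested. At WL2, 1 rose and 2 fell relative to Pre, beside 10.0%. Relative to WL1, 2 were lower at WL2, beside 3.68%. The medians in these comparisons were 0.066, -0.32 and -0.56 on the log2 scale. Hmga2, a chromatin protein, rose at WL1 from 0.343 to 2.84 CPM (log2 fold change 3.01, SE 0.78, edgeR adjusted p = 0.0455), a call kept only without Pre replicate 2 or WL2 replicate 1 (up to 0.139 in the other fits). At WL2, Lmnb1, the lamin whose loss is a known mark of senescence, fell by 0.68, and Glb1, the gene of the lysosomal beta-galactosidase whose activity is a known mark of senescence, fell by 0.52. The call for Lmnb1 was lost without Pre replicate 2 or 3 or any 1 WL2 library (up to 0.0668), and that for Glb1 without Pre replicate 2 or WL2 replicate 2 or 3 (up to 0.114). Both were also lower at WL2 than at WL1, by 0.67 and 0.53, calls that were lost without Pre replicate 3, any 1 of the WL1 libraries and WL2 replicate 2 or 3 (up to 0.159 and 0.205), the first also without WL2 replicate 1. Hmgb1, a chromatin protein that leaves the nucleus in senescent cells, rose at WL2 by 0.42, a call kept only without WL1 replicate 3 (up to 0.132 in the other fits).

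Of 14 genes of the integrated stress response, which is known to induce Gdf15 apart from p53, 1 rose and 3 fell at WL1. This stood beside 7.29% of all genes tested. At WL2, 2 rose and 2 fell, beside 10.0%. Atf3, a stress-induced transcription factor, rose at WL1 from 49.3 to 187 CPM (log2 fold change 1.92, SE 0.46, edgeR adjusted p = 0.0339), a call lost without Pre replicate 1 or 2 and without WL1 replicate 2 or 3 (up to 0.113). The serine synthesis enzyme Phgdh fell from 700 CPM to 278 at WL1 and 392 at WL2 (log2 fold changes -1.33 and -0.84, edgeR adjusted p = 0.000887 and 0.00544), both without dependence on any 1 library. Asns, the asparagine synthetase, was higher at WL2 than at WL1 by 1.02 (SE 0.11, edgeR adjusted p = 0.00355), in all leave-one-out fits, and higher at WL2 than at Pre by 0.51, a call lost without Pre replicate 3 or WL2 replicate 2 or 3 (up to 0.0749). Nupr1, a stress-induced chromatin protein, fell at WL1 by 0.86, a call kept only without Pre replicate 2 or WL2 replicate 1 or 3 (up to 0.105 in the other fits). Psat1, the next enzyme of serine synthesis, fell at WL2 by 0.52, a call lost without Pre replicate 1 or 2 or WL2 replicate 2 or 3 (up to 0.116).

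Genes of cell division, which are known to be silent in arrested cells, had higher values at WL1 and lower ones at WL2. None of 22 was called at WL1 by edgeR, beside 7.29% of all genes tested, and 1 was called by DESeq2. An unadjusted p under 0.05 was found for 4, although all 22 fold changes were above 0, with a median of 0.51. At WL2, 5 fell relative to Pre, with a median of -0.82, beside 10.0% of all genes, and 11 were lower than at WL1, with a median of -1.26, beside 3.68% of all genes. Without WL2 replicate 1, the library with the highest macrophage sum of its group, these counts were 12 and 18, and without WL2 replicate 2 they were 0 and 0. With the other libraries left out in turn they were 1 to 4 and 1 to 13. For the 14 macrophage markers, the median difference on the log2 scale was 1.33 in WL1 against Pre, 0.11 in WL2 against Pre and -1.08 in WL2 against WL1, and their part in the cell division values was not tested. Top2a, a topoisomerase of dividing cells, was at a mean of 35.2 CPM at WL1 and 10.2 at WL2 (log2 fold change -1.78, SE 0.32, edgeR adjusted p = 0.0203), a call lost without WL1 replicate 2 or 3 or WL2 replicate 2 or 3 (up to 0.0897). Rrm2, a ribonucleotide reductase subunit, and Cenpf, a kinetochore protein, were lower by 1.86 and 1.79, calls lost without these libraries and without WL1 replicate 1 (edgeR adjusted p up to 0.106 and 0.156). Relative to Pre, Cdc20, an activator of the anaphase-promoting complex, fell at WL2 by 1.14, a call lost without WL2 replicate 2 (0.0664). Cenpf and Rrm2 also fell relative to Pre, by 1.44 and 1.26. The first was lost without Pre replicate 1 or 3, WL1 replicate 2 or WL2 replicate 1 or 2 (up to 0.129), and the second was kept only without WL2 replicate 1 (up to 0.165 in the other fits).

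**Figure D4:**
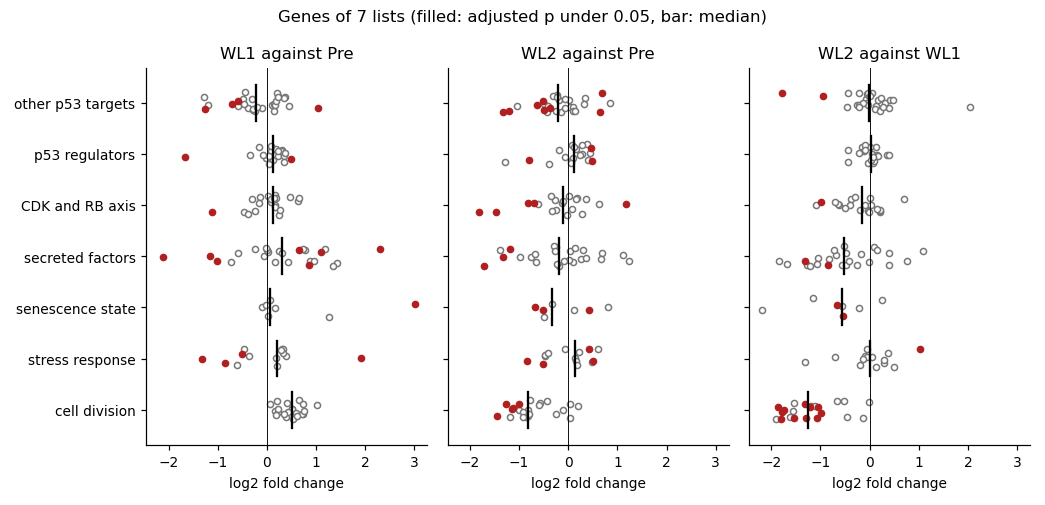
Fitted log2 fold change (horizontal axis, same scale in the 3 panels) of the genes of 7 lists around the p53 pathway, senescence and cell division, 1 point per gene, filled red where the adjusted threshold was passed, with the list median as a vertical bar. The cell division median moves from 0.51 at WL1 against Pre to -1.26 at WL2 against WL1, and the median of the other p53 targets stays between -0.22 and -0.019.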

How the data were processed

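The authors deposited raw counts per gene and FPKM per gene for 9 libraries of epididymal adipose tissue (3 per group, groups and replicate numbers from the sample titles). The submitters' processing notes name HISAT2, HISAT, TopHat2, CASAVA, GRCm38 and mm10 without roles, the study's methods name a filter of 0.5 CPM and iDEP, and no source used here gives the strand setting. Genes with at least 0.5 CPM in 1 library (18510) were fitted over all 9 libraries with edgeR 4.0.16 (R 4.3.3, TMM, glmQLFit, glmQLFTest, common dispersion 0.0478) and adjusted by Benjamini-Hochberg. Log2 CPM used a prior count of 4. Alternatives were RLE factors, library totals, DESeq2 1.42.0, no filter, a filter in 3 libraries, only the compared groups, a replicate block, limma 3.58.1 on log2(FPKM + 1) and log2(FPKM + 0.1), and each library left out. The 9 genes and all lists were chosen with earlier results of these data known. From each list the text names, per comparison, up to 3 called genes of at least 1 CPM with the largest change and up to 2 called in the opposite direction to most. Gene positions are those of the authors' table, which are not those of GRCm38, and promoter windows are RefSeq on GRCm38.p6. No replicate pair of libraries had identical values. With 16434450 to 22729072 reads per library, counting error is small for most of the 9 genes. It is large for Cdkn2a and not negligible for Gdf15, which had 49 reads in Pre replicate 1. The summed Gdf15 reads gave a ratio of WL1 to Pre of 2.76 after scaling, with a counting interval of 2.39 to 3.18. Low list genes such as Hmga2 at Pre also had few reads.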

Additional observations from a re-analysis of the deposited data

How the results depend on the processing

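The number of the 9 genes called was 3 to 5 at WL1 and 3 to 4 at WL2 relative to Pre over all alternatives, and 0 between WL2 and WL1. Over all genes tested, 1350 were called at WL1 (844 to 2344 under other settings, 507 to 1490 with 1 library left out), 1853 at WL2 (1302 to 2717, and 746 to 1680) and 681 between WL2 and WL1 (330 to 1935, and 37 to 1347). Called genes per list, with the range over all alternatives, were at WL1 4 other p53 targets (2 to 7), 2 regulators (0 to 2), 1 of the CDK and RB axis (0 to 4), 7 secreted factors (1 to 10), 1 of the senescent state (0 to 2), 4 of the stress response (1 to 6) and 0 of cell division (0 to 2). At WL2 against Pre they were 8 (3 to 8), 3 (0 to 6), 5 (3 to 8), 3 (2 to 5), 3 (0 to 5), 4 (1 to 4) and 5 (0 to 12), and at WL2 against WL1 2 (0 to 4), 0 (0 to 0), 1 (0 to 5), 2 (0 to 9), 2 (0 to 5), 1 (1 to 3) and 11 (0 to 18). Of 50 calls of list genes named in the text, 24 stood in all 9 settings other than leaving out a library and 14 without any 1 library, and none turned its sign. Library totals as the only scaling moved the median of all genes by 0.099 at WL1 and 0.149 at WL2. The replicate numbers did not pair the samples (correlations of deviations -0.277 to 0.107). With the replicate number as a block, 5, 3 and 0 genes were called, the added one being Cdkn1a at WL1 (log2 fold change -0.64, adjusted p = 0.0256).

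Signs turned only for differences that did not pass the test. For Trp53 at WL1 the log2 fold change was -0.022 with the filter in 3 libraries, -0.0099 with DESeq2, -0.0097 with RLE factors, -0.011 with only the compared groups, and ranged from -0.11 to 0.15 with 1 library left out. At WL2 it was 0.057 with library totals and -0.21 to 0.048 with 1 library left out. With 1 library left out, Mdm2 at WL2 ranged from -0.050 to 0.22, Cdkn1a at WL2 from -0.41 to 0.030, Cdkn2a between WL2 and WL1 from -0.59 to 0.038 and Ccng1 between WL2 and WL1 from -0.10 to 0.032, the last being 0.013 with library totals.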
